A study of Homo sapiens with 2 samples.

Results

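H19, the insulin-like growth factor (IGF) axis and the IGF-like gene IGFL1 were examined as 10 genes: H19, IGF2, IGF1R, IGF2R, IGFBP2, IGFBP3, IGFBP4, IGFBP6, IGFBP7 and IGFL1. Every array probe whose gene symbol was exactly 1 of these names was taken, which gave 16 probes. The 10 genes are a small part of the 18452 genes named by probes with 1 symbol. They were chosen by their intensities and ratios in this same comparison, with the results known, so their values below are a description and no test of them was made.

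HaCaT is a line of human skin keratinocytes that became immortal spontaneously in culture. The exposed group was grown in arsenic trioxide at 0.5 µg/ml and carried to passage 22. The passage control group, called control cells below, was carried to passage 22 without arsenic trioxide, in the same medium with serum. With 1 line per group, an effect of exposure and a chance drift of either line cannot be told apart. Each group was read from 4 RNA preparations, called technical replicates in the labels, with 3 arrays each. The deposited table gives 1 normalized intensity, 1 error and 1 detection p-value per probe and group, so no spread between arrays or preparations could be computed. The p-values of the authors measure at most the spread between these technical preparations. In bulk RNA, fewer cells that make a transcript and less transcript per cell cannot be told apart.

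IGF1 and IGF2 are secreted peptides that signal growth and survival through the receptor tyrosine kinase IGF1R, while IGF2R binds IGF2 and carries it to lysosomes. IGF-binding proteins hold the ligands outside the cell and limit or deliver them, and the protease PAPPA frees ligand by cutting some of them. H19 and IGF2 are neighbouring imprinted genes that share enhancers: H19 RNA, which encodes no protein, comes from the maternal copy and IGF2 from the paternal copy. Epidermal keratinocytes carry IGF1R and in skin receive much of their IGF from the fibroblasts below them. IGFL1 belongs to a small family of secreted proteins that resemble IGFs, and a protein receptor for it, IGFLR1, is known.

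The H19 transcript is also the precursor of the microRNA miR-675, whose hairpin lies inside the gene. The hairpin is shown because it is part of the RNA with the lowest ratio among the 10 genes, with the bases of both mature arms in capitals. It lies at chr11:1996759-1996831 on the minus strand, and all sequences here are RefSeq's for the build GRCh38.p14.
MIR675 hairpin: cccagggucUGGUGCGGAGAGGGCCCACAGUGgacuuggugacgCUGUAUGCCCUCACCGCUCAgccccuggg
The mature arms follow with the seed, bases 2 to 8, in capitals.
hsa-miR-675-5p: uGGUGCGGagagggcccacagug
hsa-miR-675-3p: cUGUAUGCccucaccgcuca
The arms have different seeds. Mature microRNAs were not analysed here, so the values below are for the long H19 transcript.

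IGFL1, the gene of the 10 with the highest ratio, lies on chromosome 19. The 250 bases before its annotated start, at chr19:46229492-46229741 on the plus strand, are shown as the upstream window of the gene that rose. Whether HaCaT cells use this start was not tested. Capitals mark a match to a searched motif.
IGFL1 upstream window: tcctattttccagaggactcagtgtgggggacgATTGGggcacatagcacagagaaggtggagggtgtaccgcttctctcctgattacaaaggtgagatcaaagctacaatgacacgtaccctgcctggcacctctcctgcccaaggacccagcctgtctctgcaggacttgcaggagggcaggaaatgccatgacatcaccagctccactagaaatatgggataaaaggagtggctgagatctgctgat
Both strands were searched for 6 motifs. The window held 1 match to the CCAAT box (letters CCAAT), on the minus strand and beginning 217 bases before the start, and 32.01% of 35116 such windows of annotated genes hold these letters. No match was found for the others. The TATA box, searched as TATAAA, is found in 10.7% of all windows. The GC box, searched as GGGCGG, is found in 42.6% of them. The AP-1 element was searched as TGANTCA, with N for any base, and is found in 6.57%. The antioxidant response element was searched as TGACNNNGC and is found in 10.9%. The E-box, searched as CACGTG, is found in 6.34%. Matches to the AP-1 and antioxidant response elements can overlap, since 1 run of bases can fit both. GC content was 52.8%, against a median of 58.0% over all windows. A match or its lack describes letters in this window, and binding was not measured.

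A probe was taken as detected in a group when its deposited detection p-value was below 0.05. The lowest intensity among detected probes, the detection floor, was 54.4 in exposed and 81.7 in control cells. Intensities are written ± the deposited error. Its basis is unknown. The median log2 ratio of exposed over control intensities was -0.43, taken across 9915 probes with detection on both sides. Ratios below are centred by subtraction of that median, and their errors (±) were propagated from both deposited errors and are no SD. Of the 10 genes, 8 were measured and 2, IGF2 and IGFBP2, were detected in neither group. Calls used the authors' p-values after a Benjamini-Hochberg adjustment across 7681 genes, with a limit of 0.05, and adjusted p-values below are these. The authors' p-values belong to their own comparison, with its deposited log2 ratios, and were not computed for the centred ratios.

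By this rule 1 of the 8 measured genes was lower in exposed cells (H19) and 1 was higher (IGFL1), and 6 were not called. Over all genes 5.69% were called, 3.12% higher and 2.56% lower, and 0.82% were called with at least 2-fold change. In numbers these were 240 genes higher and 197 lower, which became 189 and 241 without centring. Because the 10 genes were chosen with these calls known, nothing is read from the comparison of those shares. The median log2 ratio of the 8 genes was -0.15, with 3 above and 5 below 0, against 0.0055 over all measured genes.

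H19 was read by 2 probes. The brighter probe had an intensity of 306 ± 16.1 in exposed cells and 1348 ± 224 in control cells. The other probe had an intensity of 267 ± 21.0 in exposed cells and 1023 ± 177 in control cells. Both probes were therefore higher in control cells than in exposed cells, and the ranges of intensity ± error did not overlap for either. Both were detected in both groups, with every value above the detection floor.

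The centred log2 ratio was -1.71 ± 0.25 for the brighter H19 probe and -1.51 ± 0.27 for the other, which is 3.27-fold and 2.84-fold lower in exposed cells. The difference between the probes was smaller than either error. In the authors' deposited table the log2 ratios were smaller in size, at -1.34 and -1.11. The deposited p-values of 1.33e-07 and 2.66e-04 became 1.24e-05 and 0.00816 when adjusted over the 8451 measured probes that name 1 gene and have a p-value, of which 5.44% were called. The probes are no replicates of the condition, since they read the same RNA. Of the transcripts they are annotated with, 11 are shared, and 1 more is listed for the dimmer probe.

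The deposited error of H19 was uneven between the groups. For the brighter probe it was 16.6% of the intensity in control cells and 5.25% in exposed cells. Among 1181 other detected probes within 1.5-fold of its intensity in control cells the median error was 8.28%, and 93.8% of them had a smaller one. The dimmer probe showed the same split, with 17.3% in control and 7.84% in exposed cells. The detection p-value of the brighter probe was 4.39e-09 in control cells and is listed at 0 in exposed cells.

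**Figure D1:**
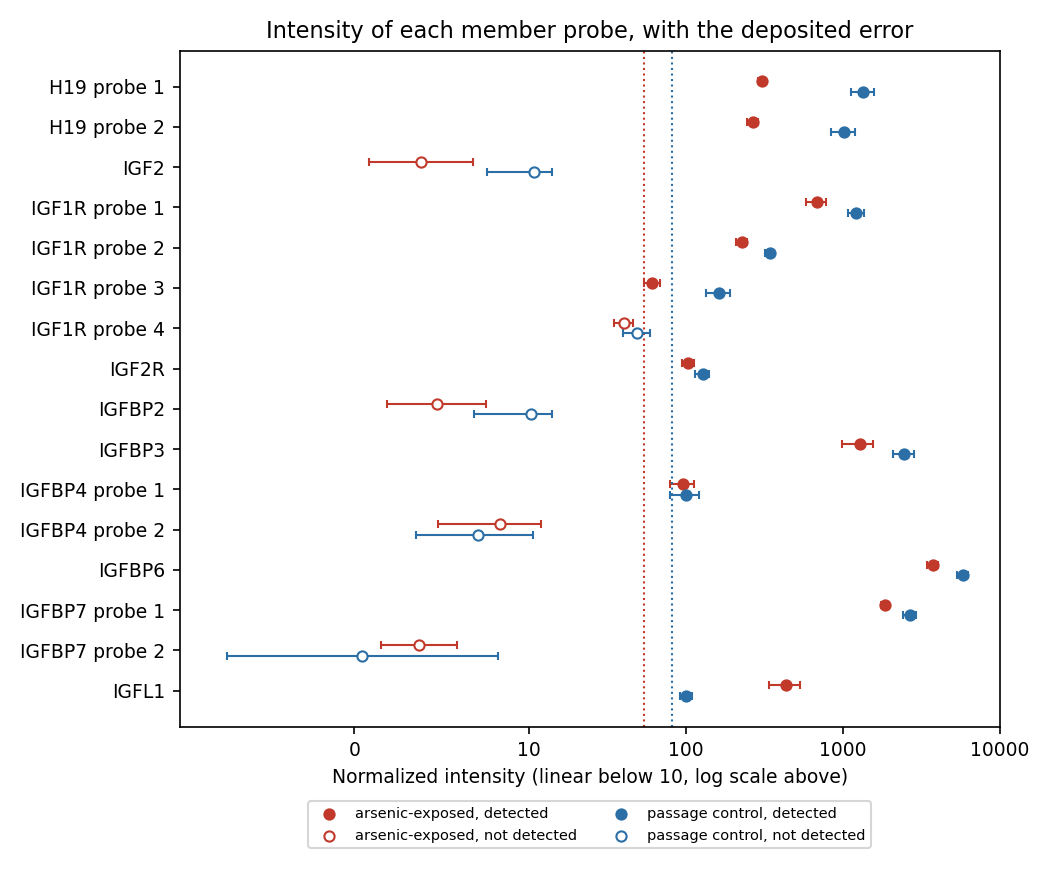
Normalized intensity of each of the 16 probes (horizontal axis, linear below 10 and logarithmic above) in exposed cells (red) and control cells (blue), with the deposited error as bars, open symbols for probes not detected and dotted lines at each group's detection floor. In control cells both H19 probes lie well to the right of their values in exposed cells. IGFL1 lies at 436 in exposed against 100.4 in control cells, and IGF2 and IGFBP2 lie near 0 in both.

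IGF2, the ligand gene next to H19, had an intensity of 3.83 ± 3.00 in exposed cells and 10.9 ± 3.24 in control cells. Its detection p-values were near 1 in both groups, so no ratio was formed, and a difference in IGF2 RNA was not detectable with this probe. A further pair of probes names INS and IGF2 together and was left out of the 16 probes. The brighter of these read 90.3 ± 11.5 in exposed and 106 ± 13.7 in control cells, a log2 ratio of 0.20 ± 0.26, and the other was not detected. The antisense transcript of IGF2 was not detected in either group, with intensities of 1.47 and 2.93 for its IGF2AS probe. H19 and IGF2 could therefore not be compared.

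IGF1R, the signalling receptor, was read by 4 probes, 3 of them detected in both groups. The brightest had an intensity of 681 ± 97.7 in exposed and 1220 ± 139 in control cells, a log2 ratio of -0.41 ± 0.26. The second had an intensity of 228 ± 17.7 in exposed and 342 ± 20.5 in control cells, a log2 ratio of -0.16 ± 0.14. All 3 detected IGF1R probes had ratios below 0, and they differed in size.
The dimmest detected IGF1R probe had an intensity of 61.4 ± 7.57 in exposed and 163 ± 27.9 in control cells. Its log2 ratio of -0.98 ± 0.30 was the lowest of the IGF1R probes, and its level in exposed cells was close to the detection floor. None of the 3 was called, with adjusted p-values over probes of 0.776, 0.849 and 0.402 from the brightest to the dimmest. The remaining probe, at 40.6 and 49.3, was not detected in either group. The brightest probe is annotated to 1 transcript and each of the others to 2, and whether they read different IGF1R transcripts was not tested.

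IGF2R, the clearance receptor of IGF2, had an intensity of 104 ± 9.10 in exposed and 128 ± 13.1 in control cells. Its log2 ratio of 0.12 ± 0.19 lay within its error of 0. It was -0.31 without centring and -0.0050 in the authors' deposited table, so it has no settled direction.

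Of the binding proteins, IGFBP3, the main carrier of IGFs in blood and a growth inhibitor in many epithelial cells, had the lowest ratio. Its intensity was 1283 ± 287 in exposed and 2472 ± 373 in control cells, which gives a log2 ratio of -0.52 ± 0.39. The authors' deposited table lists -0.44. The adjusted p was 0.875, from the deposited p-value of 0.262, and the control ± error range scaled by the median shift overlapped that of exposed cells. The IGFBP3 error in exposed cells was 22.4% of the intensity, larger than in 98.3% of 1004 other detected probes within 1.5-fold of its intensity.

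IGFBP6, which prefers IGF2 over IGF1, had an intensity of 3747 ± 282 in exposed and 5798 ± 456 in control cells. Its log2 ratio was -0.20 ± 0.16 with an adjusted p of 0.715. IGFBP7, which binds IGFs weakly, had an intensity of 1848 ± 106 in exposed and 2674 ± 256 in control cells. Its log2 ratio was -0.10 ± 0.16, within its error of 0. Neither was called.

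IGFBP4, a binding protein that PAPPA cuts, had an intensity of 96.7 ± 16.9 in exposed and 100.4 ± 21.2 in control cells. The control value lay near its detection floor of 81.7, with a detection p-value of 0.0417. The log2 ratio was 0.38 ± 0.40 and turned to -0.054 without centring. IGFBP2, another carrier of IGF2, had an intensity of 4.72 in exposed and 10.4 in control cells and was detected in neither. IGFBP4 and IGFBP7 each had a further probe that was not detected in either group.

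IGFL1 was read by 1 probe, with an intensity of 436 ± 95.5 in exposed cells and 100.4 ± 8.66 in control cells. The ranges did not overlap, and the control level lay close to the detection floor of 81.7, with a detection p-value of 0.00236. After centring, the log2 ratio was 2.55 ± 0.34, or 5.84-fold, with a deposited p-value of 1.52e-07 and an adjusted p of 1.32e-05. The authors' deposited table lists a log2 ratio of 2.00. In exposed cells the IGFL1 error was 21.9% of the intensity, larger than in 97.6% of 1937 other detected probes within 1.5-fold, whose median was 9.85%. In control cells it was 8.62%, below the median of 10.8% among 2078 such probes.

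In terms of intensity ± error, with control values scaled by the median shift, the groups did not overlap for 5 of the 11 probes with a ratio: both H19 probes, the brightest and the dimmest detected IGF1R probe, and IGFL1. Over all such probes 29.4% did not overlap. For H19 and for IGFL1 the larger relative error belonged to the group with the higher level.

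**Figure D2:**
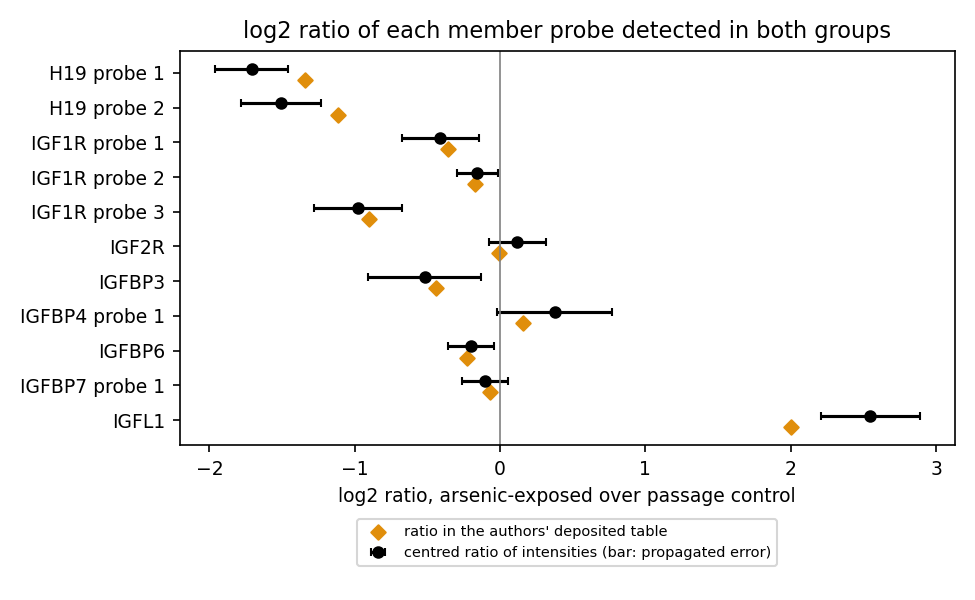
log2 ratio of exposed over control cells (horizontal axis) for the 11 probes detected in both groups, as the centred ratio of intensities with its propagated error (black) and as listed in the authors' deposited table (orange). The H19 probes lie at -1.71 and -1.51 and IGFL1 at 2.55, each further from 0 than its deposited ratio, while the IGF2R point lies on either side of 0 by source.

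Among all 7691 measured genes, 3 had a lower ratio than H19 and 2 a higher ratio than IGFL1. Of the genes called lower 1 lay below H19, and of the genes called higher 2 lay above IGFL1. IGFBP3 stood at the percentile 4.82, IGF1R at 8.26, IGFBP6 at 22.0 and IGFBP7 at 32.9. IGF2R stood at the percentile 68.9 and IGFBP4 at 90.1. The places of H19 and IGFL1 are those for which the gene set was chosen.

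**Figure D3:**
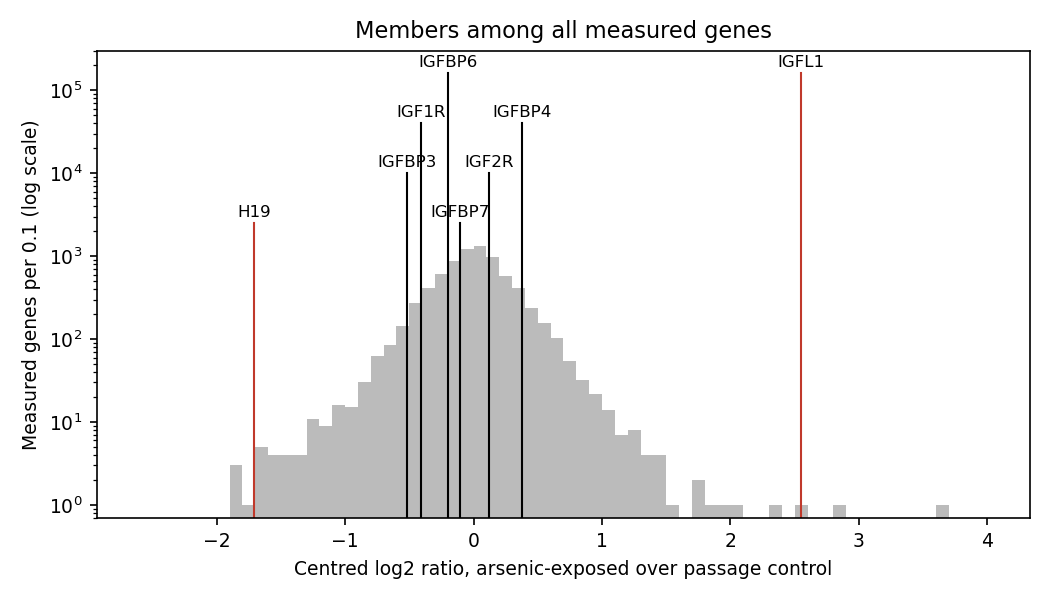
Number of measured genes (vertical axis, log scale) in bins of 0.1 of the centred log2 ratio (horizontal axis), with a vertical line at the ratio of each of the 8 measured genes; the heights of the lines carry no value. H19 at -1.71 and IGFL1 at 2.55 (red) lie in the tails and the other 6 (black) lie between -0.52 and 0.38.

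With 2 groups, likeness to another gene can mean no more than a similar ratio. Of 436 other called genes the nearest to H19 were PROC (log2 ratio -1.68 ± 0.31), KRT15 (-1.65 ± 0.28) and PLBD1 (-1.61 ± 0.25), all within the error of H19. PROC encodes the anticoagulant protein C, and KRT15 is a keratin of basal keratinocytes. The nearest to IGFL1 were IL1R2 (at least 2.39, placed by this bound), TNFSF18 (2.85 ± 0.22) and CALB2 (2.04 ± 0.16). IL1R2 was not detected in control cells, so how near its ratio lies to that of IGFL1 is not known. IL1R2 is the decoy receptor of interleukin 1, TNFSF18 the ligand of the receptor GITR and CALB2 encodes calretinin.

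The IGFL genes lie together on chromosome 19, and IGFL1 was the one of them that was called. IGFL2 had an intensity of 128 ± 26.2 in exposed and 159 ± 28.7 in control cells, a log2 ratio of 0.11 ± 0.39. IGFL3 and IGFL4 were not detected in either group. IGFLR1, the receptor known to bind IGFL1, read 1305 ± 115 in exposed and 2222 ± 139 in control cells. Its log2 ratio of -0.34 ± 0.16 was below 0, opposite to IGFL1, and was not called, with an adjusted p of 0.375. The difference between IGFL1 and IGFL2 was not tested.

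Around H19, 6 of 11 neighbouring genes on the same arm of chromosome 11 were measured, with a median log2 ratio of -0.16. CTSD, the gene of the lysosomal protease cathepsin D, fell from 1104 ± 51.7 to 622 ± 32.2, a centred log2 ratio of -0.40 ± 0.10 and an adjusted p of 0.0207. MRPL23, a mitochondrial ribosomal protein gene whose span in RefSeq's table covers H19, had a log2 ratio of -0.16 ± 0.15 and was not called. INS, the insulin gene, had a log2 ratio of -0.16 ± 0.46, TH, the gene of tyrosine hydroxylase, -0.0094 ± 0.37, and ASCL2, a transcription factor gene, -0.23 ± 0.18, and none of these was called. Insulin is made by the beta cells of the pancreas, yet this INS probe read 875 in exposed and 1318 in control cells, while a further INS probe was not detected in either group. Which transcript the brighter INS probe reads was not tested.

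Of 24 other imprinted genes 6 were measured, with 3 above and 3 below 0 and a median log2 ratio of 0.0032. None of the 6 was called, and with 5.69% called over all genes a count this small says nothing particular about imprinted genes. SLC22A18, now named SLC67A1, lies in the neighbouring imprinted domain of chromosome 11 and had a log2 ratio of -0.62 ± 0.27. PHLDA2, of the same domain and an inhibitor of placental growth, had 0.43 ± 0.25, and the imprinted noncoding RNA MEG3 had 0.088 ± 0.15. CDKN1C, KCNQ1 and KCNQ1OT1 of that domain were not detected. Of 9 genes that set or keep imprints 3 were measured and none was called: TRIM28, a corepressor, had 0.13 ± 0.16, DNMT3B, a DNA methyltransferase, -0.27 ± 0.21 and UHRF1, which brings DNMT1 to DNA, 0.11 ± 0.34. The insulator protein gene CTCF, which binds between H19 and IGF2 on the maternal copy, was not detected by its probe.

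Of the other ligands, IGF1 read 122 ± 22.6 in exposed and 202 ± 48.5 in control cells, a log2 ratio of -0.29 ± 0.44. Of 11 receptors and adaptors 7 were measured, none was called and the median log2 ratio was 0.12. The adaptors SHC1 (0.18 ± 0.14), GRB2 (0.099 ± 0.15) and GRB10 (-0.021 ± 0.13) lay near 0. IRS1, the docking protein of IGF1R, and GRB14, an inhibitor of the insulin receptor, were detected in exposed cells alone. After centring, IRS1 was at least 1.38-fold and GRB14 at least 1.16-fold higher there against the control detection floor, without being called. Before centring, the GRB14 intensity of 70.3 in exposed cells lay below that floor of 81.7. The IRS1 intensity of 83.7 lay just above it.

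Among PAPPA and related genes, 1 of 3 measured was called. STC2, the gene of stanniocalcin 2, which blocks PAPPA, rose from 102 ± 15.0 in control cells to 167 ± 17.3 in exposed cells. The control level lay close to the detection floor of 81.7, with a detection p-value of 0.0120. After centring, the log2 ratio was 1.15 ± 0.26, or 2.21-fold, with an adjusted p of 6.19e-04, and the authors' deposited table lists 0.85. PAPPA had a log2 ratio of -0.20 ± 0.25 by its brightest probe and STC1 of -0.10 ± 0.25, and neither was called. A further PAPPA probe, detected in exposed cells alone, gave a bound on the other side of 0, at least 0.16. The remaining PAPPA probe was not detected in either group. Of the IGF2 mRNA-binding proteins IGF2BP1 was not detected, and the probes of IGF2BP2 and IGF2BP3 name other genes as well.

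In the PI3K, AKT and mTOR arm, which carries the signal of IGF1R, 12 of 19 genes were measured, with 1 called higher, 1 lower and a median log2 ratio of -0.016. GSK3B, the gene of a kinase that AKT inhibits, rose from 1581 ± 103 to 2411 ± 130, a centred log2 ratio of 1.04 ± 0.12 and an adjusted p of 2.06e-10. FOXO1, a transcription factor that AKT keeps out of the nucleus, fell from 383 ± 34.6 to 187 ± 15.2, a centred log2 ratio of -0.61 ± 0.18 and an adjusted p of 0.00152. FOXO4, a related factor, had -0.48 ± 0.17 without a call, while AKT1 (0.35 ± 0.29) and AKT2 (0.095 ± 0.25) were not called. In all, 39 further genes of these lists were measured, 2 were called higher, 2 lower and 35 not, with a median log2 ratio of -0.011. Over all genes 3.12% were called higher and 2.56% lower, and 4 calls are too few to set the lists apart from that background.

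**Figure D4:**
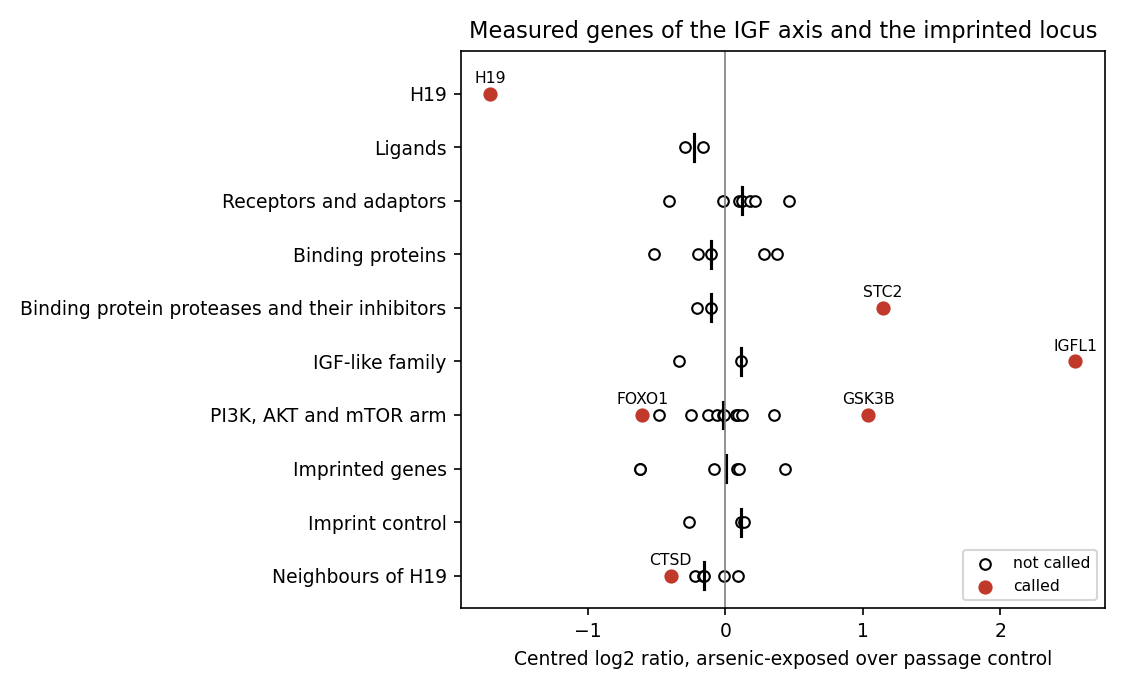
Centred log2 ratio (horizontal axis) of each measured gene in the lists of the IGF axis, imprinting and the H19 neighbourhood (rows), with called genes in red and named, other genes as open circles and a short black line at each list's median. H19 and IGFL1 lie furthest from 0, STC2 at 1.15 and GSK3B at 1.04 follow on the higher side, and FOXO1 and CTSD are called lower.

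Of 8 keratinocyte markers 6 were measured, among them KRT5 and TP63, and none was called, while the LAMB3 probe read below 0 in both groups. The centred log2 ratios of those measured ran from -0.30 ± 0.19 (DSG3) to 0.67 ± 0.29 (KRT16). Summed intensities of the keratinocyte list were 34366 in exposed and 45400 in control cells, of which KRT5 alone gave 30404 and 40026. These sums and those below are not centred, so they include the 1.35-fold lower median of exposed cells, and the centred median log2 ratio of the keratinocyte list was -0.011. Of 6 fibroblast markers 4 were measured (COL1A1, COL1A2, PDGFRB and LUM) and none was called. COL3A1 and DCN were not detected, and the sums were 497 and 788. Of 4 leukocyte markers 2 were measured. CD14 was called lower (-0.70 ± 0.18) and CD79A was not called (-0.18 ± 0.36). PTPRC and CD3E were not detected, and the sums were 1146 and 2100. Of 4 melanocyte and 3 endothelial markers 1 each was measured and none was called, with sums of 281 and 384, and 252 and 410. Their part in the values above was not tested.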

How the data were processed

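Per the labels' protocols, double-stranded cDNA was made from total RNA, amplified by in vitro transcription and coupled to Cy5. How the arrays were scanned and normalized, with which software and genome build, is not given in the sources used here. The deposited table holds, per the file headers, linear normalized intensity values by probe and group. Beside each the authors deposited an error of unstated basis (unit other), a detection p-value, and for the comparison a log2 ratio and a p-value. A further deposited copy of the intensity values differed by at most 5.00e-07.

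From these, log2 ratios were computed and centred on their median across probes detected in both groups (Python 3.11.15, numpy 2.4.6, pandas 2.3.3). Where only the group that was higher after centring passed detection, the ratio is a bound. It was taken against the other group's detection floor, or against that group's intensity where this lay above the floor. The brightest probe stood for its gene. Among 30968 probes, 22935 had 1 symbol, 2203 had several and 5830 had none. RefSeq's table (GRCh38.p14) matched 19441 probes by gene identifier, and the file's symbol was kept for 3008 with no match and 486 whose identifier names another gene. Ratios were had for 7691 genes, 7243 from detection in both groups and 448 as bounds, and 7681 had a deposited p-value. The 12 arrays per group read 4 technical RNA preparations of 1 line. They set a limit to the technical precision and are no sample size for the exposure. The propagated error of a log2 ratio had a median of 0.20, and the basis of the deposited errors behind it is unknown.

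The 10 genes, the lists and the naming rule were chosen with earlier results of these data known. The rule names the 10 genes with every probe, each called gene of the other lists, and the 3 called genes nearest in ratio to H19 and to IGFL1. Further genes are named for their role, after their values were seen. RefSeq's promoter table held 8 of the 10 genes. The calculation was tested on simulated data in which every probe counted as detected. There p-values came from the same errors that set the noise, so the deposited p-values and the bounds were not tested. Alternatives were no centring, the deposited ratio, quantile normalization, an offset of 32, a detection limit of 0.01, the mean of all probes and a filter on dim genes.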

Additional observations from a re-analysis of the deposited data

How the results depend on the processing

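The counts of members called higher (1) and lower (1) were the same under all 7 alternatives, since the calls rest on the deposited p-values. The log2 ratio of H19 ranged from -2.14 without centring to -1.34 in the authors' deposited table, and that of IGFL1 from 2.00 to 2.57. Their adjusted p-values ranged from 9.99e-06 to 1.24e-05 and from 1.11e-05 to 1.39e-05, respectively. With the mean of all probes, these p-values were adjusted over probes. That of H19 came from its brighter probe alone, while its other probe had 0.00816. Of 54 values for the 8 genes, 51 kept their direction and their side of the threshold. The 3 that changed direction were IGF2R, at -0.31 without centring and -0.0050 in the authors' deposited table, and IGFBP4, at -0.054 without centring, both without a call in any setting. IGF2R and IGFBP4 gave no value without dim genes. Without centring 189 genes were called higher and 241 lower, against 240 and 197 with it. No paired analysis was possible because each group has 1 combined value per probe. Leaving out a replicate was not possible for the same reason. Signals near the detection floor limit IGFL1 and STC2 in control cells, IGFBP4 and the dimmest detected IGF1R probe.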
